A study of Mus musculus with 16 samples.

Results

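The nuclear-encoded genes of the respiratory chain were followed in epidermal cells of aged mice that had received control IgG or antibodies blocking IL-17A and IL-17F. Members were the rows of the count table whose Entrez identifier carries a mouse symbol starting with Nduf, Uqcr, Atp5 or Cox4 to Cox8, or is Sdha, Sdhb, Sdhc, Sdhd, Cyc1 or Cycs. These were 102 of the 27179 genes of the table. Of the 102, 97 are protein-coding and 5 are annotated pseudogenes (Atp5c1-ps, Ndufa11b, Ndufs5-ps, Ndufs6b and Uqcrh-ps1). Another 15 RefSeq symbols match the same rule but have no row, 14 of them pseudogenes and 1 the coding gene Ndufb1. The mice were C57bl/6J, and all 8 were treated from 73 weeks of age with 3 intraperitoneal injections a week over 12 weeks. The control group (4 mice) received control IgG and the other group (4 mice) received anti-IL-17A/F. Bulk RNA came from epidermal cells, a mixture in which keratinocytes predominate, so that a lower level of a transcript can reflect fewer cells of a type or less RNA per cell, and these cannot be told apart.

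The respiratory chain passes electrons from NADH (complex I) and succinate (complex II) through ubiquinone, complex III and cytochrome c to oxygen at complex IV, and the ATP synthase uses the proton gradient built along the way. Most subunits are encoded in the nucleus and imported, while a small set, including the catalytic core of complex IV, is encoded by mitochondrial DNA, so assembly draws on both genomes. The nuclear genes are transcribed under factors such as NRF1, the ETS factor GABP and YY1, with coactivators of the PGC-1 family. In the epidermis, which has no blood vessels of its own, mitochondria are present in the living layers and are cleared as keratinocytes cornify.

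The labels give each mouse in both of 2 sequencing batches, under the same library number and index, and the 2 columns of a mouse were summed. The totals were 42816157 to 53721153 counts per mouse, and 19427 to 19727 genes had a count. The keratinocyte label held: the summed level of the 6 basal markers was 19626 to 25890 CPM (counts relative to the library size after TMM scaling) and that of the 8 suprabasal markers 20085 to 25261 CPM. The 12 skeletal muscle markers together were at 5.96 to 7.07 CPM and the 6 fibroblast markers at 17.9 to 42 CPM. Of the 5 brown fat markers Ucp1 had 0 counts, but together they were at 243 to 439 CPM. Most of that was Cidea, at 140 to 234 CPM, and Elovl3, also listed for sebocytes, at 93.3 to 193 CPM. The low level of the muscle markers bears on the muscle isoforms described below.

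To set genes beside each other, levels are given per kb of exon, because longer transcripts collect more reads. The ATP synthase and complex IV held the most abundant members. Atp5b, the catalytic beta subunit of the ATP synthase (chr10:128083307-128090388, GRCm38), was the highest of all at a mean of 518 CPM per kb over the 8 mice, followed by Atp5a1, its alpha partner, at 349 CPM per kb. Cox4i1, the common subunit 4 of complex IV, was at 333 CPM per kb. Uqcrh, the hinge protein of complex III, led its complex at 201 CPM per kb, and Ndufa6, an accessory subunit that holds the acyl carrier protein on complex I, led complex I at 121 CPM per kb.

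The classes differed in level. The median was 85.5 CPM per kb for the 17 ATP synthase genes, 85.7 for the 9 complex III genes, 75.1 for the 20 complex IV genes, 57.4 for the 4 complex II genes, 49 for the 7 core and 50.8 for the accessory subunits of complex I. The 8 complex I assembly factors, which act on the complex while it is built and do not stay in it, had a median of 9.9 CPM per kb, and the highest of them, Ndufaf2, reached 12.3 CPM per kb. No core subunit of complex I was as low as that, since the lowest of them was at 17.6 CPM per kb.

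**Figure D1:**
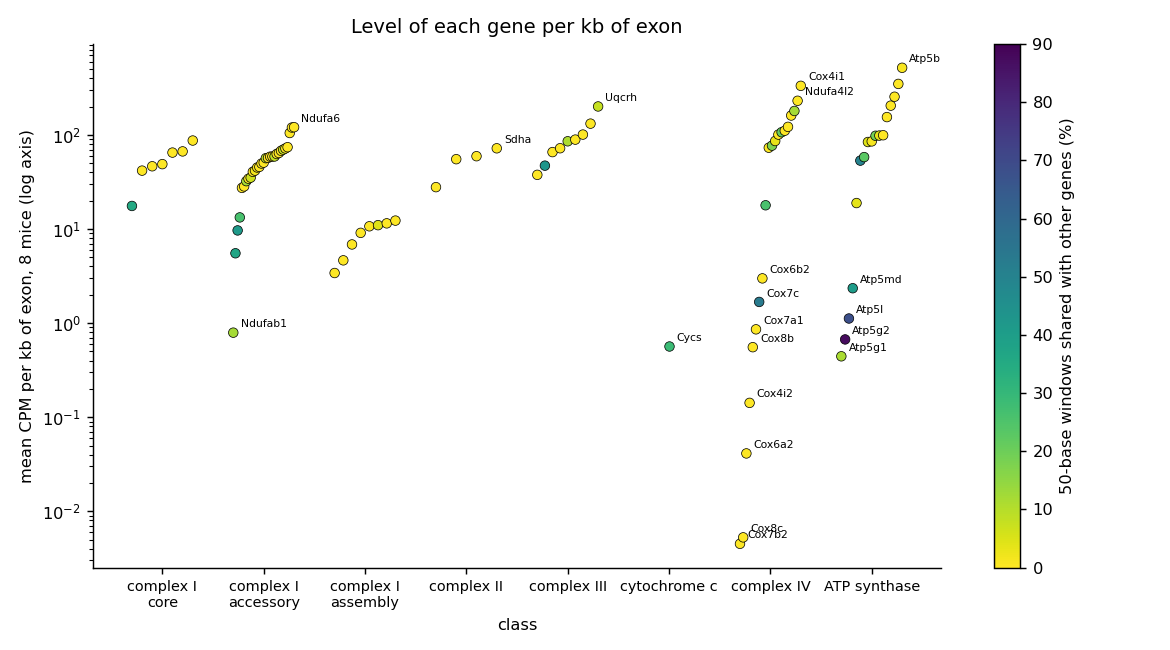
Mean level of each protein-coding member per kb of exon over the 8 mice (log axis), by class, with the colour giving the share of its 50-base windows that also occur in other genes. Most members lie between 10 and 518 CPM per kb, and those far below are tissue-restricted isoforms of complex IV or genes such as Cycs, Cox7c, Atp5g2 and Atp5l.

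Several members stood far below their complex although their proteins are ubiquitous. Cycs, which encodes cytochrome c, was at 0.571 CPM per kb, Cox7c at 365 counts in all 8 mice, Atp5l at 248 and Atp5g2 at 197 counts. Reads were 50 bases long, and a read that maps to several places was not counted, so each member was searched for 50-base windows that also occur in transcripts of other, non-overlapping genes. In Atp5g2 87.4% of the windows were shared, in Atp5l 68.5% and in Cox7c 53%, mostly with annotated pseudogenes. Of the 95 coding members with transcripts, 56 shared no window and had a median of 24.9 counts per window over all mice, 35 shared up to 50% and had a median of 24.3, and the 4 above 50% had a median of 0.622 and a range of 0.289 to 23.5. The highest of these 4 was Atp5h, a stalk subunit of the ATP synthase, which shared 50.5% of its windows and was level with members that shared none. Cycs shared 28.5%, Ndufab1, the acyl carrier protein, 12.3% and Atp5g1, which had 860 counts in all, 11.5%, which leaves their low counts without a value of this kind beside them, as copies outside the annotated transcripts were not searched. The levels of all these genes are uncertain. Their comparison between mice rests on the few reads that remained, with Cycs at 79 to 109 counts a mouse.

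Complex IV has isoforms known from particular tissues and conditions. Ndufa4l2, a paralog of the complex IV subunit Ndufa4 that is induced under hypoxia through HIF-1 in several cell types, was abundant (chr10:127509274-127517154). It was at 201, 195, 238 and 245 CPM in control IgG replicates 1 to 4 and at 209, 215, 262 and 164 CPM in anti-IL-17A/F replicates 1 to 4. Ndufa4 was at 65.9, 61.8, 58.4 and 64.1 CPM in the same control mice and at 57.3, 54.3, 61.4 and 68.5 CPM in the treated mice. Per kb, Ndufa4l2 made up 60.9% to 73.6% of the pair, with the lowest share in anti-IL-17A/F replicate 4, and its mean level per kb was 2.3 times that of Ndufa4. Of the 76 members at 10 CPM or more it also varied most between mice, with an SD of 0.229 on the log2 scale.

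The heart and skeletal muscle isoforms were near the detection limit. Per kb, Cox7a1 made up 0.369% to 0.951% of its pair with Cox7a2, Cox8b 0.213% to 1.09% of its pair with Cox8a, and Cox6a2, with 11 counts in all mice, at most 0.0625% of its pair with Cox6a1. Cox4i2, a lung isoform that responds to oxygen, had 42 counts against 103066 of Cox4i1. The testis isoforms Cox7b2 and Cox8c had 1 count each in all 8 mice. Cox6b2, another testis isoform, was the exception among the restricted forms at 1.39% to 2.26% of its pair with Cox6b1. Ndufb4b had 0 counts in all, which allows up to 3 counts, or 0.00741 CPM, of reads that map to 1 place. It was not searched for shared windows, so its 0 is not read as a lack of the transcript. Cox7a2l, listed with the isoforms of complex IV, was at 84.4 to 93.8 CPM in every mouse.

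Promoters were read for the letters bound by the factors named above, which are known to act on many genes of the chain. RefSeq windows (GRCm38.p6) from 250 bases before to 50 after the start were found for 78 of the 102 members. The NRF1 core GCGCATGC was in 16.7% of the member promoters (13 of 78) against 3.92% of all 18458 genes of the table with a window. The ETS core CCGGAAG was in 24.4% (19 of 78) against 12.7%, and the YY1 core AANATGGCG in 14.1% (11 of 78) against 3.57%, on either strand. A gene with several starts counted where any of its windows held the letters. In the shorter window from 200 bases before the start to the start, YY1 was in 2.56% (2 of 78) against 1.35%, ETS in 15.4% against 9.15% and NRF1 in 11.5% against 3.14%. In the full window at least 1 of the 3 was in 46.2% of the members and in 18.3% of all genes. By class, 9 of 15 ATP synthase promoters, 3 of 14 of complex IV and 11 of 28 of the complex I accessory subunits held at least 1. A match is a run of letters and not a measured binding site. In the 36 members with a match the median log2 fold change of anti-IL-17A/F against control IgG was -0.043, and in the 39 tested members without one it was -0.023.

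Of the 7 members whose promoters held at least 2 of the 3 motifs, 5 are shown, 1 for each of complex I (an assembly factor), complex II, complex III, complex IV and the ATP synthase, as 300 bases 5′ to 3′ on the strand of the gene. Capitals mark the motif letters: NRF1 (GCGCATGC or its reverse complement GCATGCGC), ETS (CCGGAAG or CTTCCGG) and YY1 (AAGATGGCG here). The windows are chr11:120098684-120098983 on the + strand for Ndufaf8 (ETS, YY1), chr4:140961021-140961320 on the + strand for Sdhb (NRF1, ETS), chr10:80406772-80407071 on the - strand for Uqcr11 (NRF1, ETS), chr5:115348909-115349208 on the - strand for Cox6a1 (NRF1, ETS) and chr16:84834927-84835226 on the - strand for Atp5j (YY1, ETS). In Cox6a1 the NRF1 core lies on both strands, overlapping by 6 of its letters. Atp5j has a further start, whose window (chr16:84835576-84835875) holds none of the 3 motifs and is not shown.
Ndufaf8: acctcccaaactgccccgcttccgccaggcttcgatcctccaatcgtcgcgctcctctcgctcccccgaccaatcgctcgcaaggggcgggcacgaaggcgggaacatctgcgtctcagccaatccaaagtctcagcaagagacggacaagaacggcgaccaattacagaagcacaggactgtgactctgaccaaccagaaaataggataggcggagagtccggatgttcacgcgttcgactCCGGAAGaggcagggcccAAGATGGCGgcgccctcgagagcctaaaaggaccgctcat
Sdhb: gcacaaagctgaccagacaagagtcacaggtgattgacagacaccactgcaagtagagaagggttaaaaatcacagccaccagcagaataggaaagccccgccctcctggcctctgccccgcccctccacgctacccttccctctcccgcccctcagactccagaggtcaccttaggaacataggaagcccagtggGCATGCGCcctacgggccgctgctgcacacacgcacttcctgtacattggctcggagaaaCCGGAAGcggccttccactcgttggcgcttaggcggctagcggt
Uqcr11: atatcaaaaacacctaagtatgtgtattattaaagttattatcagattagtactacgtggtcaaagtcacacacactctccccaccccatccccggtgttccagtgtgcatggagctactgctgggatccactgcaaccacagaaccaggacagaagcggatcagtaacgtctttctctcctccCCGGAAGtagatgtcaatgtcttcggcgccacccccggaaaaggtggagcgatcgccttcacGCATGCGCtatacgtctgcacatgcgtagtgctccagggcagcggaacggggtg
Cox6a1: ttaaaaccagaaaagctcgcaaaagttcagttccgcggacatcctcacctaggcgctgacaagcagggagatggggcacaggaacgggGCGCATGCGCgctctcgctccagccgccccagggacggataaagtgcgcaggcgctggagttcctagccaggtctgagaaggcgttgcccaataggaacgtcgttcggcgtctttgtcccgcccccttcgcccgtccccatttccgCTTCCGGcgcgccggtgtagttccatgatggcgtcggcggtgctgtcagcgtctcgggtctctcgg
Atp5j: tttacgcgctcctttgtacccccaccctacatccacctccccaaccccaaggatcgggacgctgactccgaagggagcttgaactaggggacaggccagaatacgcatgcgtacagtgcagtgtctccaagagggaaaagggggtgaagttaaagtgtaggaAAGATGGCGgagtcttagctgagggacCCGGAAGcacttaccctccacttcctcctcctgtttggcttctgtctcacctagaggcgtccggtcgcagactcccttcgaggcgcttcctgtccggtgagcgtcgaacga

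The comparison of anti-IL-17A/F with control IgG asked whether blocking IL-17A and IL-17F in the aged animal changed respiratory chain transcripts. No member passed the test. Of the 102 members, 95 passed the filter on low counts (at least 10 counts in enough mice), and by edgeR's quasi-likelihood test with Benjamini-Hochberg adjustment over all 16335 genes tested 0 were called at an adjusted p under 0.1, as were 0% of all genes (edgeR, 0 of 16335). The smallest adjusted p of a member was 0.984. At an unadjusted p under 0.05 the same test had 0 of 95 members and 4.03% of all genes (658). DESeq2 called 0 members, against 0.083% of the genes it tested (11), and limma-voom 0 members and 0 genes, with 1 member, Uqcrq, and 6.73% of all genes at an unadjusted p under 0.05.

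The groups overlapped in the level of every tested member (0 of 95 without overlap), where 2.42% of all genes (395 of 16335) did not overlap, 1.41% with the treated mice higher and 1% with the treated mice lower. The intervals were narrow. For 79 of the 95 members the 95% interval of the log2 fold change lay between a 25% increase and the matching decrease, against 52.6% of all genes tested. These shares are not at matched level: 76 of the 95 members were at 10 CPM or more, against 10219 of all 16335 genes. Members at that level had a median SD between mice of 0.105 on the log2 scale, and all genes at that level 0.096. Of the 16 members with wider intervals, Cox7a1, Atp5g2, Atp5l and Cox7c had the widest, on few counts. Not all of the 16 had few counts: Ndufa4l2, with 87368 counts in all, had an interval of -0.358 to 0.257, and Ndufaf4, with 6821 counts, one of -0.140 to 0.409.

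The fitted values leaned to the low side. Of the 95 members, 70 (73.7%) had a log2 fold change below 0 and 25 above, where 49.9% of all genes were below 0. The 95 include the 5 annotated pseudogenes, of which 4 were above 0 and 1 below (median 0.026). The median was -0.034 over the members and 0.000 over all genes, and -0.004 over the 10129 genes at 10 CPM or more. With total counts in place of TMM factors, 54 members were below 0 and 41 above, with a median of -0.007 where the median of all genes was 0.027. The members were measured in the same 8 mice and are not independent, so these counts describe the list and are not a test.

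**Figure D2:**
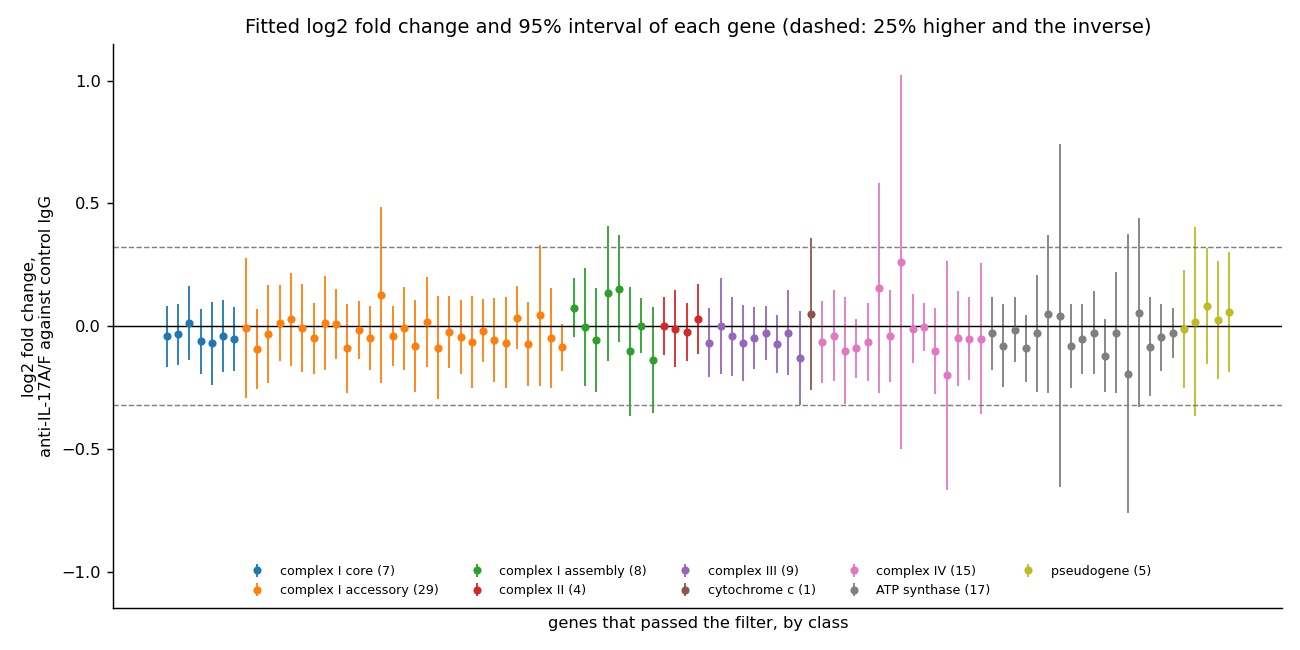
Fitted log2 fold change of anti-IL-17A/F against control IgG (edgeR, 4 mice per group) and its 95% interval for the 95 members that passed the filter, by class, with dashed lines at a 25% increase and its inverse. Most points lie just below 0, the median is -0.034, and the widest intervals belong to Cox7a1, Atp5g2, Atp5l and Cox7c, which have few counts.

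Complex I, the NADH dehydrogenase, was compared first. Its 38 nuclear subunit genes summed to 1951, 1857, 1741 and 1977 CPM in control IgG replicates 1 to 4 and to 1771, 1723, 1874 and 1958 CPM in the anti-IL-17A/F replicates. The means were 1882 ± 107 and 1831 ± 105 CPM (SD, n = 4 each), a difference of -2.67% that is within 1 SD, and the ranges overlap. The lowest control mouse lay between the 2 lowest treated mice. Of the 7 core subunits, which carry the flavin and the iron-sulfur clusters, 6 had a fitted value below 0, with a median of -0.041 and a range of -0.070 to 0.012.

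Among the core subunits, Ndufs7, which binds the last iron-sulfur cluster before ubiquinone, was at 52.7, 51.6, 45.7 and 51.4 CPM in the control mice and at 46.3, 47.2, 47.9 and 51.6 CPM in the treated mice (log2 fold change -0.062 ± 0.058 SE, adjusted p = 0.984 by edgeR). Ndufs8, another iron-sulfur subunit, was at 56.2, 50.5, 46.1 and 52.4 against 48.4, 43.8, 51.4 and 51.8 CPM (-0.070 ± 0.075). In both of them control IgG replicate 3 was the lowest control mouse, and no group stood apart.

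Of the 29 accessory subunits that passed the filter, 21 were below 0 and 8 above (median -0.032). Ndufv3, a subunit of the NADH-binding module (chr17:31520115-31531326), had the smallest unadjusted p of all members, 0.072, and an adjusted p of 0.984 by edgeR. It was at 74.3, 77.7, 71 and 75.8 CPM in the control mice and at 71.6, 71.7, 70.5 and 67.8 CPM in the treated mice, a log2 fold change of -0.086 ± 0.042 (SE). Only control IgG replicate 3 lay within the range of the treated mice. Ndufa10 followed with 114, 108, 95.2 and 106 against 94.3, 93, 99.3 and 110 CPM (-0.094 ± 0.072), and Ndufa6, the most abundant per kb, had 70.4, 71.1, 64.8 and 79 against 70.3, 71.7, 75.9 and 68.9 CPM (0.008 ± 0.063).

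Of the 8 assembly factors of complex I, 4 were above 0 and 4 below, with a median of -0.000. Their sum was 94.3 ± 1.37 CPM in the control and 96 ± 3.86 CPM in the treated group (SD, n = 4 each). Ndufaf5, an enzyme that modifies Ndufs7 during assembly, was at 6.78, 7.61, 8.35 and 7.57 against 7.82, 7.91, 9.17 and 8.77 CPM (log2 fold change 0.152 ± 0.097 SE). Ndufaf8, known in human cells as a partner of NDUFAF5, was at 8.58, 8, 8.37 and 10 against 7.45, 7.84, 7.93 and 8.58 CPM (-0.138 ± 0.096). These had the smallest unadjusted p of the class (0.15 and 0.184), and their fitted values have opposite signs. Ndufaf2 was at 8.28, 7.86, 8.66 and 8.58 against 7.49, 7.3, 9.05 and 9.47 CPM (-0.003 ± 0.106), and Ndufaf7, a methyltransferase of complex I assembly, had the smallest spread between mice of all members, an SD of 0.030 on the log2 scale, at 18.6 to 19.8 CPM.

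Complex II, the succinate dehydrogenase, is the only respiratory complex encoded wholly in the nucleus and is also an enzyme of the citrate cycle. Its 4 genes summed to 443, 437, 412 and 446 CPM in the control mice and to 418, 419, 428 and 469 CPM in the treated mice (434 ± 15.4 and 434 ± 24.3 CPM, SD, n = 4 each), a difference of -0.181%. Sdha, the flavoprotein, was at 215, 216, 199 and 209 against 202, 209, 201 and 225 CPM, with a log2 fold change of -0.001 ± 0.052 (SE). The membrane anchor Sdhc and the iron-sulfur subunit Sdhb were at -0.025 ± 0.053 and -0.011 ± 0.069, and the other anchor, Sdhd, at 0.030 ± 0.063. For Sdhb this was 71.9, 64.3, 63.3 and 73.4 against 64.5, 62.9, 70.3 and 73.1 CPM. The 95% intervals of the 4 genes ran from -0.167 at the lowest to 0.172 at the highest.

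For complex III, the cytochrome bc1 complex, the 9 genes summed to 920, 887, 848 and 941 CPM in the control mice and to 846, 811, 883 and 938 CPM in the treated mice (899 ± 40.5 and 869 ± 54.4 CPM, -3.32%). Of the 9, 8 were below 0 with a median of -0.047. Uqcrq, a small membrane subunit, had the smallest unadjusted p of the class, 0.159, with 62.4, 61.3, 52.4 and 63.8 against 50.7, 51.1, 55.1 and 62.4 CPM (log2 fold change -0.129 ± 0.084 SE, adjusted p = 0.984 by edgeR). The highest treated mouse, replicate 4, was level with control replicate 1. Uqcrfs1, the Rieske iron-sulfur protein, was at 97.3, 100, 97.2 and 109 against 93.9, 91.7, 98.7 and 99.9 CPM (-0.072 ± 0.052), and Uqcrh at 113, 102, 104 and 125 against 105, 100, 112 and 118 CPM (-0.027 ± 0.076). Cycs, the mobile carrier from complex III to complex IV, was at 1.68, 1.7, 2.08 and 1.54 against 1.77, 1.84, 1.92 and 1.72 CPM (0.050 ± 0.137), on the low counts described above.

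Complex IV, the cytochrome c oxidase, had 20 nuclear genes of which 15 passed the filter, 13 of them below 0 (median -0.051). The sum was 1196, 1121, 1150 and 1282 CPM in the control mice and 1104, 1078, 1220 and 1170 CPM in the treated mice (1187 ± 70.6 and 1143 ± 64.2 CPM, -3.72%). Ndufa4l2 is part of this sum, at 262 CPM in anti-IL-17A/F replicate 3 and 164 CPM in replicate 4. The common isoforms stood close together: Cox4i1 was at 262, 246, 246 and 287 against 235, 231, 253 and 276 CPM (log2 fold change -0.066 ± 0.074 SE), Cox6a1 at 108, 105, 98.5 and 111 against 97.8, 93.6, 103 and 104 CPM (-0.091 ± 0.053, unadjusted p = 0.123, adjusted p = 0.984 by edgeR). Exons of Cox4i1 overlap the gene Emc8 on the opposite strand over 20.1% of their length, and whether the counting used strand is not given. Cox6b1 (-0.065 ± 0.071), Cox7b (-0.10 ± 0.078), Cox8a (-0.050 ± 0.086), Cox7a2 (-0.011 ± 0.062), Cox7a2l (-0.003 ± 0.043) and Ndufa4 (-0.051 ± 0.074) also overlapped between the groups. Ndufa4l2, whose values are given above, was at -0.051 ± 0.136. The restricted isoforms that passed the filter, Cox6b2 (0.155 ± 0.189) and Cox7a1 (0.263 ± 0.337), were the only complex IV genes above 0 among the 15 tested, on 793 and 136 counts in all. Cox8b did not pass the filter and was not tested by edgeR. With 79 counts in all, it was at 0.0991, 0.0771, 0.153 and 0.156 against 0.151, 0.419, 0.177 and 0.368 CPM, and the groups overlap.

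The ATP synthase summed to 2988, 2912, 2716 and 2978 CPM over its 17 genes in the control mice and to 2641, 2605, 2805 and 3109 CPM in the treated mice (2899 ± 126 and 2790 ± 230 CPM, -3.74%). Anti-IL-17A/F replicate 4 was the highest of all mice and replicate 2 the lowest, so the treated group enclosed the control group. Atp5a1 and Atp5b made up 64.3% to 65.7% of the sum. Atp5b was at 1070, 1026, 950 and 1030 against 902, 899, 971 and 1089 CPM (log2 fold change -0.079 ± 0.075 SE).

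Of the 17, 14 were below 0 with a median of -0.029. Atp5j2, the membrane subunit f (chr5:145183704-145191541), had the smallest unadjusted p of the class, 0.102, at 19.7, 17.2, 18.1 and 20.3 against 17.6, 17.3, 17.7 and 16.7 CPM (-0.120 ± 0.066, adjusted p = 0.984 by edgeR). Atp5d, a subunit of the central stalk, was at 207, 196, 181 and 205 against 178, 176, 189 and 198 CPM (-0.091 ± 0.060). The c-ring, the rotating ring of the membrane part, is encoded by 3 genes with the same mature protein, of which Atp5g3 held 98.3% to 98.8% of the counts. Atp5g1 and Atp5g2 had the low counts described above.

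**Figure D3:**
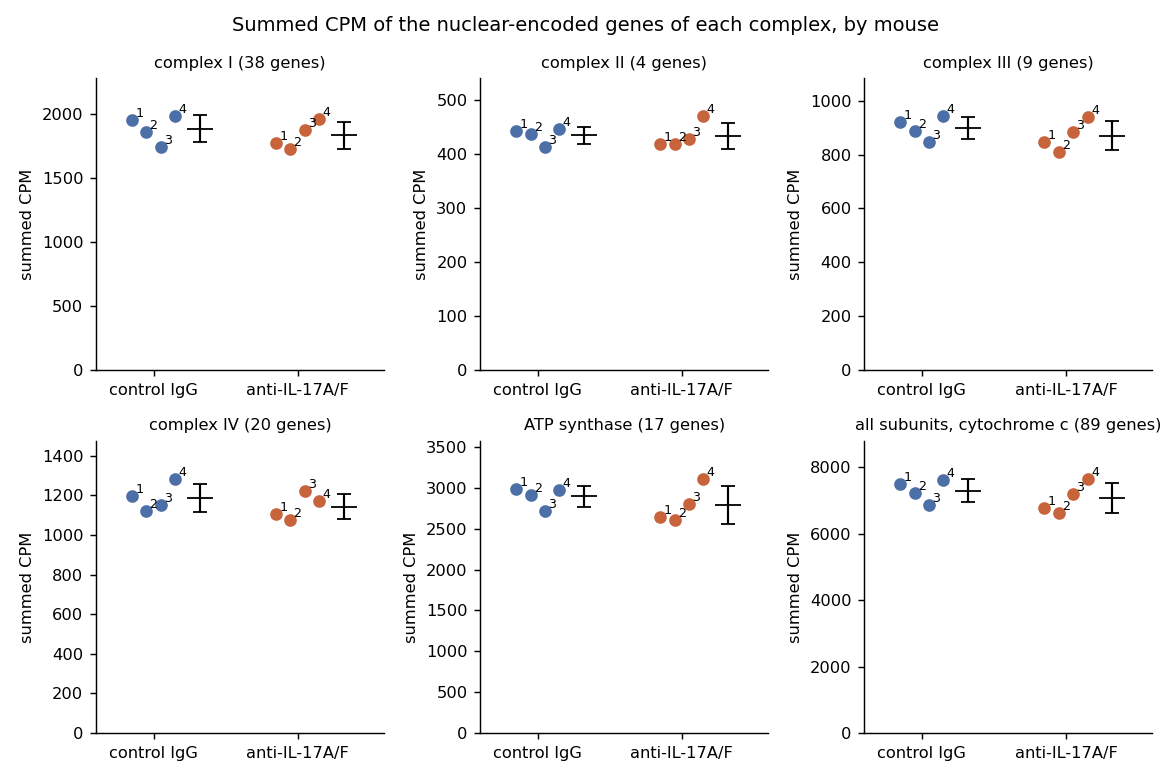
Summed CPM of the protein-coding genes of each complex in every mouse (points, numbered by replicate), with the mean and SD of each group of 4 mice beside them. The groups overlap in each panel, and anti-IL-17A/F replicate 4 lies near or above the highest control mouse except in complex IV.

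The complexes moved together from mouse to mouse. Over all 89 subunit and cytochrome c genes the sum was 7500, 7216, 6870 and 7626 CPM in the control mice and 6782, 6638, 7212 and 7646 CPM in the treated mice (7303 ± 336 and 7069 ± 455 CPM, -3.2%). The highest mouse was 15.2% above the lowest, and both belonged to the treated group. The share of each complex in that sum hardly varied: complex I took 25.3% to 26.1%, complex II 5.84% to 6.32%, complex III 12.2% to 12.5%, complex IV 15.3% to 16.9% and the ATP synthase 38.9% to 40.7%. Between the 2 sequencing batches of 1 mouse the sum differed by 0.0547% to 0.611%, less than most differences between mice. Within batch 1 the median log2 fold change of the members was -0.034 and within batch 2 it was -0.033.

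Single members followed the same mice. Of the 90 coding members that passed the filter, 48 had their lowest value in anti-IL-17A/F replicate 2, 16 in control IgG replicate 3 and 9 in anti-IL-17A/F replicate 1, while 33 had their highest value in control IgG replicate 4, 32 in anti-IL-17A/F replicate 4 and 16 in control IgG replicate 1. The median log2 deviation of the members from the control mean was -0.136 in anti-IL-17A/F replicate 2, -0.089 in replicate 1 and 0.061 in replicate 4. Over all genes it was -0.001, 0.004 and -0.009 in these mice. In control IgG replicate 3 it was -0.091 for the members and -0.003 over all genes. Anti-IL-17A/F replicate 2 was also the mouse with the fewest counts, 34633761 in batch 1 and 8182396 in batch 2. Its sum over the subunit and cytochrome c genes was 6638 CPM in batch 1 and 6597 CPM in batch 2, the lowest of all mice in each. Without that mouse the median log2 fold change of the members was -0.004, with 51 of 95 below 0. Without anti-IL-17A/F replicate 4 it was -0.073, with 79 below 0, and without control IgG replicate 3 it was -0.063, also with 79 below 0. The size of the lean thus moved with single mice of both groups.

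The spread of the members was close to that of other genes. Where the mean of log2(CPM + 0.5) over the mice was at least that of 10 CPM, a slightly different set of genes from that given above by edgeR's average level, the SD between mice within a group had a median of 0.105 on the log2 scale over 76 members and 0.096 over 10219 genes.

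**Figure D4:**
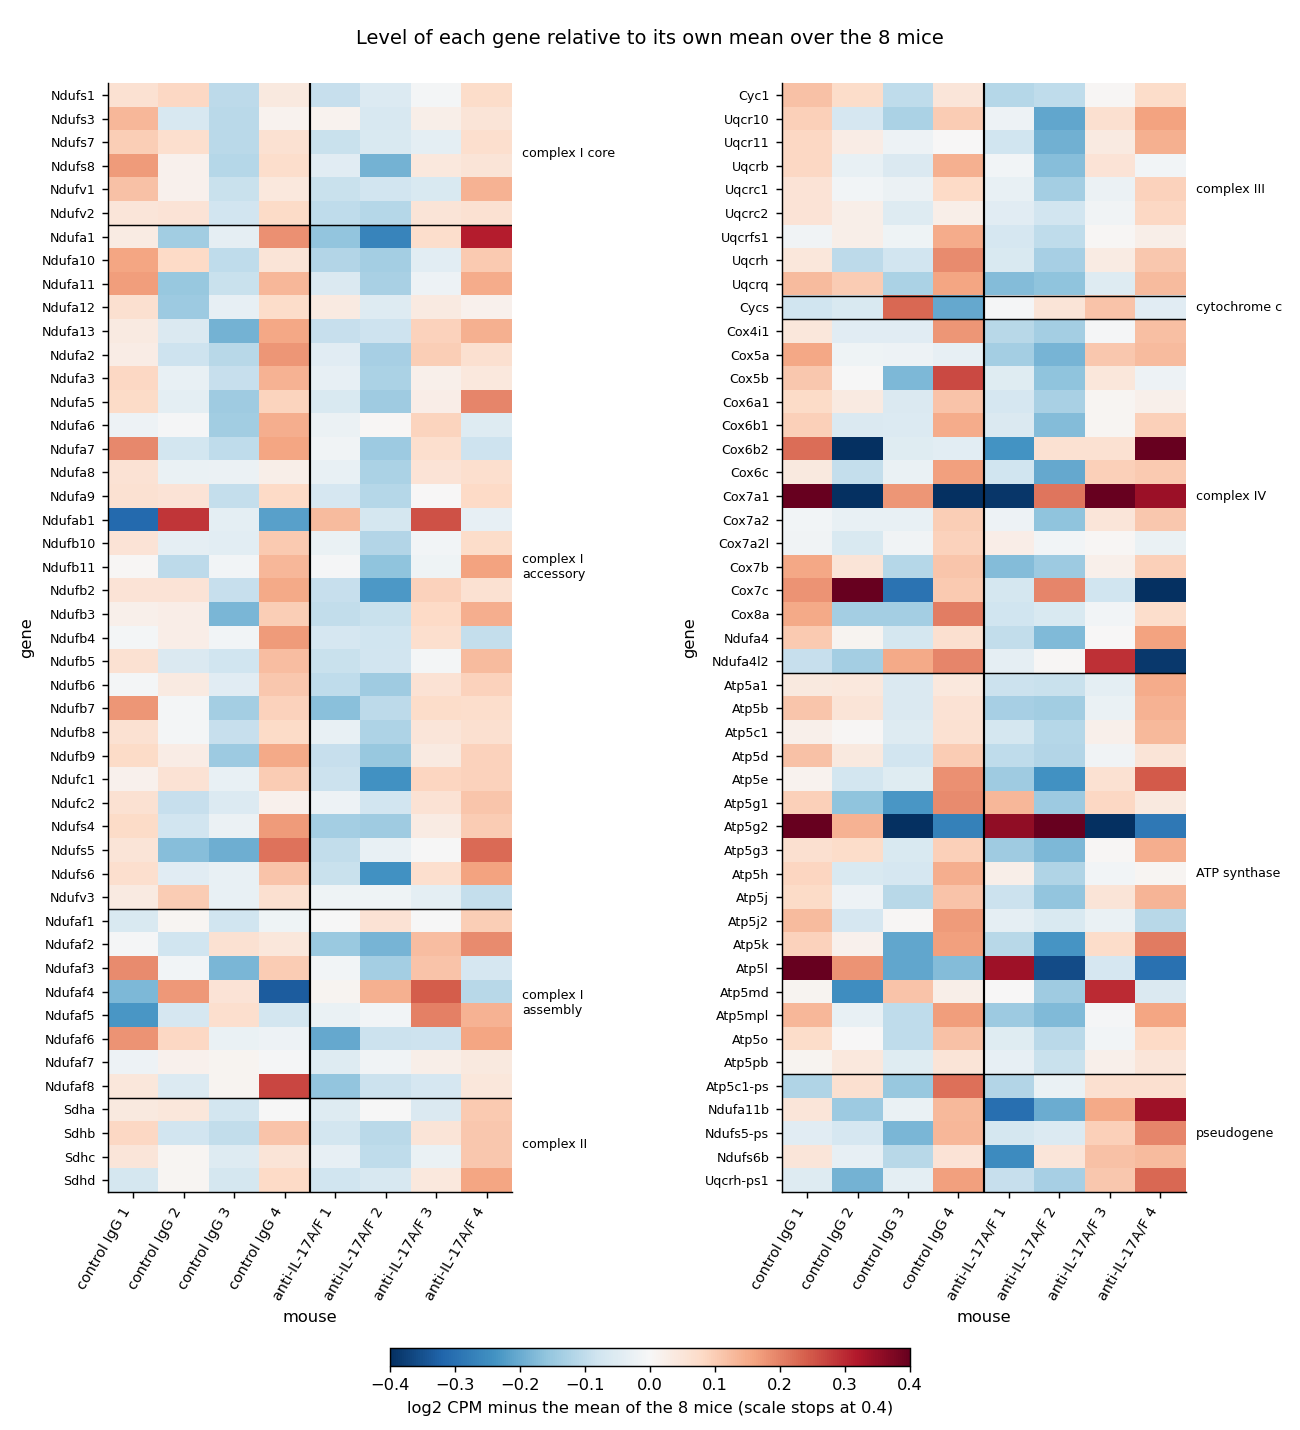
Log2 CPM of members that passed the filter in each of the 8 mice, as the difference from its own mean over the mice (colour, the scale stops at 0.4). Anti-IL-17A/F replicates 1 and 2 and control IgG replicate 3 are blue for most rows. Control IgG replicate 4 and anti-IL-17A/F replicate 4 are red, so each group holds low and high mice.

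The mitochondrially encoded partners of these subunits were read in the same mice. All 13 protein-coding genes of mitochondrial DNA are in the table, of which ND1, ND2, ND4, ND5, ND6, CYTB and COX1 carry nearly all counts. COX2, ND4L, COX3, ATP6 and ATP8 had at most 1 count in any mouse, ND3 12 to 82 counts, and since reads that map to several places were not counted, their near absence is not read as a lack of the transcript. The sum was 28563, 28554, 20999 and 20953 CPM in control IgG replicates 1 to 4 and 23381, 32057, 21905 and 22258 CPM in the treated mice. Anti-IL-17A/F replicate 2, lowest in the nuclear sum, was highest here. The ratio of mitochondrial to nuclear counts was 3.39 ± 0.583 in the control and 3.56 ± 0.879 in the treated group (SD, n = 4 each), from 2.75 in control IgG replicate 4 to 4.83 in anti-IL-17A/F replicate 2. COX1, a catalytic subunit of complex IV, had a log2 fold change of 0.025 ± 0.149 (SE) and CYTB, of complex III, -0.018 ± 0.162.

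**Figure D5:**
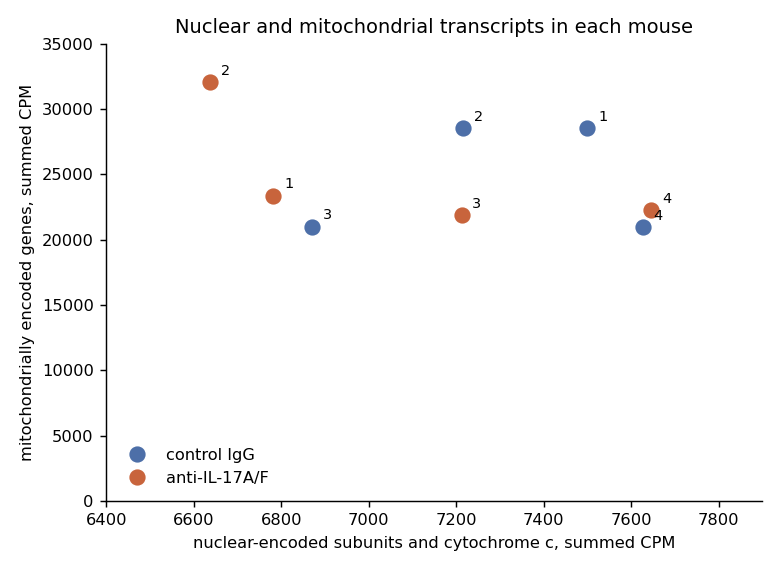
Summed CPM of the mitochondrially encoded genes against that of the 89 nuclear-encoded subunit and cytochrome c genes, 1 point per mouse numbered by replicate (the horizontal axis does not start at 0). The groups overlap on both axes, and anti-IL-17A/F replicate 2 is lowest on the horizontal and highest on the vertical axis.

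Genes that work alongside the chain were read from lists, and none of their genes was called by edgeR either. Of 18 citrate cycle and pyruvate dehydrogenase genes, 14 were below 0 and 4 above (median -0.048). Pdhb, of the pyruvate dehydrogenase, was at -0.091 ± 0.045 and Idh3a, of the citrate cycle, at 0.10 ± 0.051, with adjusted p = 0.984 for each by edgeR. The 19 regulators of mitochondrial biogenesis split into 9 above and 10 below 0 (median -0.001). The nuclear receptor Esrra, a partner of PGC-1, was lowest in p among them at -0.092 ± 0.048.

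Of 46 other assembly factors, 25 were above and 21 below 0 (median 0.006), and of 32 import and membrane genes 12 were above and 20 below (median -0.019). The groups did not overlap in 2 genes of the assembly list (Tmem126a and Sco1), in 1 of the import list (Slc25a3) and in 1 of the 77 tested mitochondrial ribosome genes (Mrps31). Over all genes tested 2.42% did not overlap, and these counts are not read as a result about the lists. Tmem126a, a complex I assembly factor, was at 12.4, 13.6, 13.1 and 12.5 against 13.9, 14.3, 14.2 and 14.2 CPM (0.132 ± 0.060), and Slc25a3, the phosphate carrier that feeds the ATP synthase, at 307, 296, 295 and 302 against 282, 263, 287 and 293 CPM (-0.095 ± 0.048, adjusted p = 0.984 by edgeR for each). The mitochondrial ribosome genes had a median of -0.007 and the 81 cytosolic ribosome genes 0.008.

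Markers of other cells also differed between mice. All 8 hair follicle markers had fitted values above 0 (median 0.505, summed level 278 to 491 CPM in the control and 415 to 588 CPM in the treated mice). All 6 proliferation markers were also above 0 (median 0.278, 172 to 313 against 196 to 491 CPM). Both sums were highest in anti-IL-17A/F replicate 4, the mouse with the highest respiratory sum. Anti-IL-17A/F replicate 2, lowest in the respiratory sum (6638 CPM), was at 537 CPM for hair follicle and 196 CPM for proliferation markers. Control IgG replicate 4, at 7626 CPM in the respiratory sum, was at 443 and 243 CPM. The endothelial and melanocyte sums were also highest in anti-IL-17A/F replicate 4. All 6 endothelial markers were above 0 (median 0.417, 4.54 to 6.61 against 4.3 to 11.8 CPM), as were all 5 melanocyte markers (median 0.297, 45.4 to 70.4 against 45.6 to 119 CPM). All 6 basal keratinocyte markers were below 0 (median -0.037, 19626 to 25890 against 20634 to 23305 CPM). Of the 8 suprabasal markers 5 were below 0 and 3 above (median -0.027, 20085 to 25261 against 21715 to 24353 CPM). The basal sum was 19626 CPM in control IgG replicate 1 and 23877 CPM in replicate 3, whose respiratory sums were 7500 and 6870 CPM. All 6 sebocyte markers were below 0 (median -0.251, 7163 to 12637 against 5925 to 8971 CPM), as were all 7 T cell markers (median -0.239, 138 to 211 against 137 to 193 CPM) and all 7 markers of macrophages and Langerhans cells (median -0.524, 105 to 338 against 123 to 194 CPM). None of these genes was called by edgeR, and the sums overlapped between the groups. Their part in the levels of the respiratory chain genes was not tested.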

How the data were processed

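Bulk RNA of epidermal cells was measured in 8 mice. Per the labels and the study's methods, the authors prepared stranded poly(A) libraries, aligned single-end reads of 50 bases with STAR 2.5.2b to mm10. Counting used featureCounts and the mm10 genes it comes with. The authors deposited raw counts per Entrez gene. A read over several genes was counted for each, and a read that mapped to several places for none. Symbols were matched in RefSeq (GRCm38.p6) for 25275 of 27179 identifiers (93%). The 16 deposited columns are 8 mice in each of 2 sequencing batches, and the columns of a mouse were summed.

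Groups were compared with edgeR 4.0.16 (quasi-likelihood test, TMM factors, filterByExpr with a minimum count of 10 and a minimum total of 15), adjusted by Benjamini-Hochberg over the 16335 genes tested and called under 0.1, as in the study. All tests were two-sided. SE is the log2 fold change divided by the square root of F, and 95% intervals use the t quantile of the fit. The test was checked on simulated counts. CPM are counts over effective library sizes, and lengths are merged exons of GENCODE M21. Sums over a complex and medians over genes are descriptions without a test. Alternatives were DESeq2 1.42.0, limma-voom with sample weights (limma 3.58.1), other scalings, no filter, single sequencing batches, each mouse left out and a replicate block.

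The study used experimental batch as covariate. The labels name only the sequencing batch, which holds every mouse in both batches, and whether the covariate was this batch is not given. The mix of the batches was uneven in anti-IL-17A/F replicate 2, with 34633761 counts in batch 1 and 8182396 in batch 2. The other mice had 21663689 to 26989574 counts in batch 1 and 23776659 to 32057464 in batch 2. With 42816157 to 53721153 counts per mouse, counting error is small for members above 10 CPM. The members and lists were chosen with earlier results of these data known. Genes were named by a rule: complex II and Cycs, the most abundant member and the 2 of smallest p of each class, members called or not overlapping, isoforms of complex IV, and the members of largest and smallest spread. Uqcr11, Atp5j, Ndufab1 and the members with few counts were added after their values were seen. A member counted in sums, medians and totals is not reported here by itself, nor shown in the heatmap. The inhibitor of the ATP synthase carries no symbol that the rule takes.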

Additional observations from a re-analysis of the deposited data

Results flagged for a closer look

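In 80 groups of 4 mice (the complex sums, the named members and the mitochondrial sum), the highest or lowest mouse was compared with its nearest neighbour, and in 2 groups the gap exceeded the 95% critical value of Dixon's ratio for 4 samples, where chance gives about 1 in 20. Cox7a2 was at 85.8 CPM in control IgG replicate 4, where the next control mouse had 79.6 CPM (ratio 0.855). The mitochondrially encoded genes summed to 32057 CPM in anti-IL-17A/F replicate 2, where the next treated mouse had 23381 CPM (ratio 0.855).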

How the results depend on the processing

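No member was called by edgeR under any of the alternatives, nor by DESeq2 (also with the study's threshold on the shrunken change) or limma-voom, and the smallest adjusted p of a named member over all of them was 0.735. The number of called genes was 0 with edgeR and 11 with the DESeq2 Wald test, none of them members. The median log2 fold change of the members ranged from -0.073 to -0.004 over 18 alternatives and was below 0 in each. The difference in level between groups stayed within 1 SD between mice of the main value for every complex, ranging from -0.075 to -0.011 for complex I, -0.043 to 0.025 for complex II, -0.087 to -0.017 for complex III, -0.088 to -0.016 for complex IV and -0.111 to -0.023 for the ATP synthase on the log2 scale. The share of member promoters with the ETS core was 15.4% and with the YY1 core 2.56% in the window from 200 bases before the start to the start, a shorter window that leaves out the bases after it; over all genes the shares were then 9.15% and 1.35%.

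The labels give replicate numbers without saying whether they pair the mice. In deviations from the group mean, same-numbered mice correlated at -0.265, 0.25, 0.189 and -0.135 and differently numbered mice at -0.312 to 0.302. These values show no pairing, but with 4 mice per group they cannot exclude it. With the number as a replicate block, edgeR called 0 members and 0 genes, 71 of 95 members were below 0 and the median was -0.038. Members with few counts or shared windows, the strand of overlapping exons and the 4 mice per group limit what can be seen. Without members that share a 50-base window, an alternative added after seeing the data, the sum over all complexes differed by -0.044 on the log2 scale.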
